A study of Mus musculus with 32 samples.

Results

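The subject is the resting microRNA (miRNA) make-up of the mouse mesenteric artery, a bed of small arteries that supplies the gut and is widely used to study resistance vessels. Its members are the control libraries of both time points, taken by genotype label: 13 libraries, 1 per mouse, of 30 with values and 32 labelled samples. The control mice, ieCre, were males of 10 to 12 weeks that carried a tamoxifen-inducible Cre recombinase driven by the Tie2 promoter, which is specific to endothelium in the submitters' description. They received 1 mg/kg of tamoxifen subcutaneously on each of 5 days and were examined after 16 days (short term, 6 mice) or after 3 months (long term, 7 mice), so all of them had been exposed to both the recombinase and the drug. Arteries were cleaned of veins and of perivascular fat before RNA was extracted, and each mouse gave 1 µg of it to a TruSeq small RNA library read on a HiSeq-2500. The study set these controls beside ieET-1 mice, which overexpress the vasoconstrictor endothelin-1 in endothelium and are not described here, and the 2 times were not compared.

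A miRNA is cut from a hairpin precursor whose 5′ arm (5p) and 3′ arm (3p) can each give a mature strand of about the same length. 1 strand is usually kept in an Argonaute protein and guides it to mRNAs, and the other is usually lost. Bases 2 to 8 of the mature strand, the seed, do most of the target pairing, so strands that share a seed form a family. miR-143 and miR-145, made from neighbouring hairpins, are known for the contractile state of vascular smooth muscle, and miR-126 for endothelium.

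The values were read numbers per mature miRNA, given as a share of all miRNA reads of a mouse. They covered 870 listed rows, or 869 with the doubly listed miR-486-5p counted once. The libraries held 1657893 to 28412384 miRNA reads, with a median of 9598949. The limit that a count of 0 allows, 3 reads, lay between 1.06e-05% and 0.000181% of a library, and it covers counting error only. Of 16 samples labelled as controls, 2, 1 at each time, were not analysed here, and number 8 of the short term was left out. The reads of number 8 were nearly those of a library of the other genotype (Pearson r 0.9999 on the log2 scale). The next closest of 435 pairs, at 0.996, also held number 8, with another library of that genotype. The label of number 8 is thus in doubt. Shares count reads after adapter ligation and amplification, not molecules, and the shares of a mouse sum to 100, so a high miRNA lowers every other share.

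The strands below lead the make-up, and they are shown because their seeds define its main families. Sequences are from RefSeq (GRCm38.p6), with the seed in capitals; 20 of the 25 most abundant miRNAs were found there. miR-10b-5p lies on the plus strand at chr2:74726074-74726096 among the Hoxd genes, and miR-10a-5p on the plus strand at chr11:96317186-96317208 among the Hoxb genes. miR-30a-5p lies at chr1:23272274-23272295, miR-27b-3p at chr13:63300760-63300780, miR-191-5p at chr9:108568325-108568347, miR-99b-5p at chr17:17830194-17830215 and miR-22-3p at chr11:75463772-75463793, all on the plus strand.
miR-10b-5p: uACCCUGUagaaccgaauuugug
miR-10a-5p: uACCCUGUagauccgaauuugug
miR-30a-5p: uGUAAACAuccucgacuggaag
miR-26a-5p: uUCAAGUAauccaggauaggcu
miR-27b-3p: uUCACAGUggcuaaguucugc
miR-191-5p: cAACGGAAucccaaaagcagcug
miR-181a-5p: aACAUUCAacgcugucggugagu
miR-99b-5p: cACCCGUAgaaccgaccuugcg
miR-22-3p: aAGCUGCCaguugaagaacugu
The miR-10 strands share a seed and differ by the single substitution U12A from miR-10a-5p to miR-10b-5p, counted from the 5′ end. The other strands printed have seeds of their own. Of the 20 found, 7 have more than 1 locus in RefSeq, and their reads cannot be assigned to a locus. Among them are miR-26a-5p (chr9 and chr10), miR-181a-5p (chr1 and chr2), let-7f-5p (chr13 and chrX) and miR-16-5p (chr3 and chr14). let-7a-5p was counted at 1 locus, although a further let-7a hairpin, Mirlet7a-2, is listed on chr9.

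A pair of miRNAs held most of the reads. miR-143-3p, the smooth muscle miRNA, took 44.9% ± 11.4 (SD, n = 13 mice) and ranked first in all 13 mice. Its shares in the short-term mice were 43.4% in mouse 10, 45.6% in mouse 932, 39.3% in mouse 931, 36.4% in mouse 8754, 30.01% in mouse 9955 and 35.0% in mouse 9957, and in the long-term mice they ran from 35.1% to 70.6% with a median of 52.2%. Mouse 8149 was highest at 70.6%, and the next mouse, 8089, had 57.4%. miR-10b-5p, a miRNA of the Hox clusters that mark position along the body axis, took 23.5% ± 5.42 and ranked second in all 13 mice, between 15.5% and 31.7%. The mouse with the most miR-143-3p, 8149, had the least miR-10b-5p. Together the pair took 68.4% ± 11.5, from 48.6% in mouse 9955 to 86.1% in mouse 8149.

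The ranks below were less fixed. miR-10a-5p followed with 5.63% ± 2.24 and was the third miRNA in 8 mice, miR-486-5p in 4 and miR-30a-5p in 1. miR-486-5p, abundant in red blood cells and muscle and encoded within the ankyrin gene Ank1, took 4.30% ± 2.58, with a lowest value of 0.458% in mouse 10, a median of 4.57% and a highest of 9.78% in mouse 9957. It ranked from the third to the nineteenth place. miR-30a-5p, a miRNA whose known targets include the autophagy gene Becn1, took 4.27% ± 2.10, between 1.06% and 8.23%. miR-26a-5p, encoded in introns of the Ctdsp phosphatase genes, took 2.21% ± 1.13. miR-126-5p, from an intron of the endothelial gene Egfl7, took 1.74% ± 1.53, from 0.159% in mouse 8149 to 4.74% in mouse 9957.

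2 further miRNAs took more than 1% on average and the rest less. miR-27b-3p, known from angiogenesis and lipid metabolism, took 1.38% ± 0.596, and miR-191-5p, from an intron of Dalrd3, took 1.02% ± 0.775. miR-181a-5p stood at 0.995%, miR-99b-5p at 0.916% and miR-22-3p, cut from a non-coding RNA, at 0.636%. miR-181a-5p ranged from 0.516% to 2.54% and reached the fourth rank in 1 mouse, 932. From let-7f-5p, at 0.601%, to miR-151-3p, at 0.235%, the next 13 miRNAs were close in mean share. They were in order let-7f-5p, miR-127-3p, let-7c-5p, miR-148a-3p, miR-30d-5p, let-7i-5p, miR-24-3p, miR-199a-3p, miR-16-5p, miR-21a-5p, let-7a-5p, miR-140-3p and miR-151-3p. Their neighbours in this order differed in mean by less than the SD between mice.

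**Figure D1:**
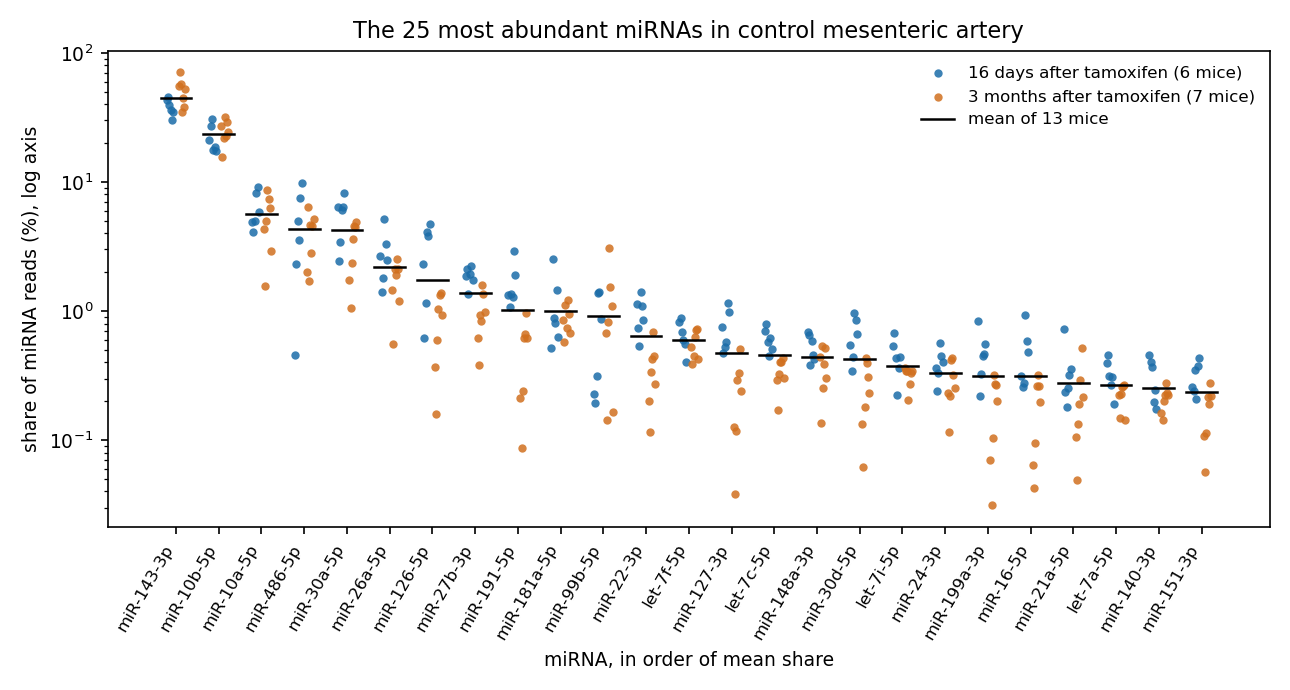
Share of miRNA reads (%, log axis) of the 25 miRNAs with the highest mean share, 1 point per mouse, with short-term mice in blue, long-term mice in orange and the mean of 13 mice as a black line. miR-143-3p and miR-10b-5p lie apart from all others in every mouse. The points of miR-486-5p, miR-126-5p, miR-191-5p, miR-99b-5p, miR-22-3p, miR-127-3p, miR-30d-5p, miR-199a-3p, miR-16-5p and miR-21a-5p each span more than 1 order of magnitude.

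The distribution was uneven in every mouse, to a different degree. The 10 most abundant miRNAs of a mouse held 90.5% ± 3.65 of its reads (85.4% to 97.4%), the top 20 held 95.2% ± 1.85 and the top 100 held 99.8% ± 0.117. It took 3 miRNAs to reach 90% of reads in mouse 8149 and 16 in mouse 10, with a median of 10, and 26 to 74 to reach 99%. The effective number, which is 1 over the sum of squared shares and counts how many equally abundant miRNAs would give the same concentration, was 3.98 ± 1.37. Its lowest value was 1.90 in mouse 8149, its median 3.88 and its highest 6.77 in mouse 9955. The short-term mice lay between 3.49 and 6.77 and the long-term mice between 1.90 and 4.23, so the times overlapped on this measure. They did not overlap in the number of miRNAs that reach 99% of reads, 55 to 74 at short term and 26 to 51 at long term. The shares of the top 50 and of the top 100 did not overlap either, and the difference was not tested.

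By mean share, 2 miRNAs lay at or above 10%, 7 between 1% and 10%, 29 between 0.1% and 1% and 46 between 0.01% and 0.1%. A further 95 lay between 0.001% and 0.01%, 154 between 0.0001% and 0.001%, and 435 below that but above 0. The 435 together held 0.0085% of the reads. No read was listed for 101 miRNAs in any of the 13 mice. The same 2 miRNAs led every mouse. The sets of 10 most abundant miRNAs shared 6 members over all mice and held 16 different miRNAs in all, and the sets of 50 shared 37 of 65.

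**Figure D2:**
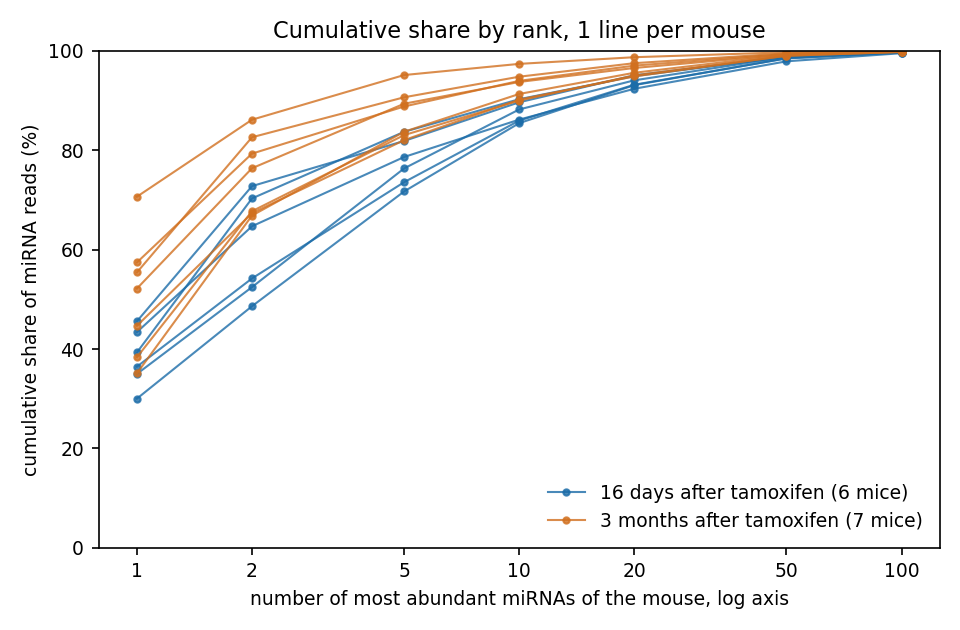
Cumulative share of miRNA reads (%) held by the 1, 2, 5, 10, 20, 50 and 100 most abundant miRNAs of each mouse (log axis), 1 line per mouse. The lines start between 30.01% and 70.6% and come together by rank 50, where the lowest mouse has 97.9%.

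The number of miRNAs seen depended on depth. Between 372 and 666 miRNAs had at least 1 read in a mouse, 293 had one in all 13, and these 293 held 99.98% of the reads. When every library was thinned at random to 1657893 reads, the depth of mouse 9957, 288 to 467 miRNAs were seen per mouse and 215 in all mice. The deepest library, mouse 8754, had 666 at full depth.

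Grouped by seed, or by name where no sequence was found, 12 families held 94.7% of the reads on average. Rows placed by their own name stem held 51.7% of the reads, among them miR-143-3p, miR-486-5p and miR-126-5p. miR-143-3p, which stood alone because its seed was not compared, led with its 44.9%. The miR-10 family (seed ACCCUGU, 2 members) took 29.2% ± 6.02, from 17.1% to 40.4%. The miR-30 family (GUAAACA, 6 members) took 5.01% ± 2.47 and miR-486-5p 4.30%. The miR-26 family followed with 2.33% ± 1.19, and let-7 (GAGGUAG, 10 members) with 1.83% ± 0.543. miR-126-5p, miR-27 (1.43%), miR-99/100 (1.29%), miR-181 (1.08%), miR-191-5p and miR-22-3p completed the 12. let-7, a family known to restrain growth genes and abundant in most adult tissues, was thus the sixth family here.

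Most families were carried by 1 member, and let-7 was shared. miR-10b-5p gave 80.7% ± 7.52 of the miR-10 family, between 67.1% and 90.8%, and was above miR-10a-5p in all 13 mice. miR-30a-5p gave 85.6% ± 3.44 of its family and miR-30d-5p 8.21% ± 2.63. miR-26a-5p gave 94.8%, miR-27b-3p 96.6% and miR-181a-5p 91.7% of theirs. In let-7, let-7f-5p gave 33.3% ± 4.68, let-7c-5p 24.6% ± 4.08, let-7i-5p 20.99% ± 5.61 and let-7a-5p 14.5% ± 1.58, and no member passed 40.4% in any mouse. In the miR-99/100 family, miR-99b-5p gave 67.0% ± 12.3, from 45.9% to 83.2%. The members of a family differ by few bases, as the following strands show, and their reads are uncertain where the authors' counting could split them.
let-7f-5p: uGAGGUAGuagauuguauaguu
let-7a-5p: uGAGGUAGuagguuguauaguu
let-7c-5p: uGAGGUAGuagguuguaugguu
let-7i-5p: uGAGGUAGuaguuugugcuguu
miR-30a-5p: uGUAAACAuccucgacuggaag
miR-30e-5p: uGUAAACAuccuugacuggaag
The substitutions are A12G from let-7f-5p to let-7a-5p, A19G from let-7a-5p to let-7c-5p, and C13U from miR-30a-5p to miR-30e-5p. Their assignment is not stated by the submitters' notes used here.

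miRNAs known for particular cell types were summed as lists, taking every listed arm. The smooth muscle list, miR-143 and miR-145a, took 45.1% ± 11.3, and miR-143-3p was 99.6% of it. miR-145a-5p, the other smooth muscle strand of this cluster, stood at 0.137% ± 0.0768 and miR-145a-3p at 0.0480% ± 0.0429. The endothelial list, miR-126, miR-221 and miR-222, took 1.83% ± 1.58, and miR-126-5p was 94.9% of it. miR-221-3p was at 0.00698% and miR-222-3p at 0.00234%. The erythroid list took 4.34% ± 2.58, 98.996% of it from miR-486-5p, while miR-451a, a strand made in red blood cells without Dicer, stood at 0.0374% ± 0.0381 and miR-144-3p at 0.00452%. In a whole artery, fewer cells of a type and less of its RNA per cell cannot be told apart.

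The lists of other cell types and tissues were lower. The fibroblast list (miR-199a, miR-199b, miR-214 and miR-21a) took 0.623% ± 0.403, with miR-199a-3p at 0.317% and miR-21a-5p at 0.276%. The adipose list took 0.102% ± 0.0356, 89.3% of it from miR-378a-3p, which is also made in muscle, and miR-193b-3p was at 0.00251%. The intestinal list took 0.0815% ± 0.0355, 96.9% of it from miR-192-5p. The striated muscle list took 0.0693% ± 0.0391, nearly all of it miR-133a-3p at 0.0653%. The heart and skeletal muscle miRNAs miR-208a-3p and miR-206-3p were at 0 in all mice.

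Leukocyte miRNAs took 0.0440% ± 0.0270, led by miR-146a-5p at 0.0214% and miR-142-5p at 0.0165%, and the myeloid miR-223-3p stood at 0.00101%. Neural miRNAs took 0.0268% ± 0.00590, of which miR-9-5p was 93.9%, and miR-124-3p, which defines neurons, was at 0 in 4 of 13 mice. Epithelial miRNAs of the miR-200 family with miR-203 and miR-205 took 0.00632% ± 0.00495. The liver miRNA miR-122-5p had 15 reads in all, and 10 of 13 mice had none. The pancreas list took 0.0301% ± 0.0607, 97.0% of it miR-375-3p, an islet miRNA also made in gut epithelium. Its lowest value was 0.00117%, its median 0.0123% and its highest 0.227%, in mouse 8088. Without that mouse the mean was 0.0137%. The smooth muscle and endothelial lists thus had reads in every mouse, but so did every other list except liver. Presence alone therefore does not single out the labelled tissue. The erythroid list, at 4.34%, was on average above the endothelial list, at 1.83%. Of the other lists, the liver list was near 0, and the striated muscle list was not: miR-133a-3p, miR-1a-3p (0.00217%) and miR-133b-3p (0.00175%) had reads in all 13 mice, while miR-208a-3p and miR-206-3p had none.

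**Figure D3:**
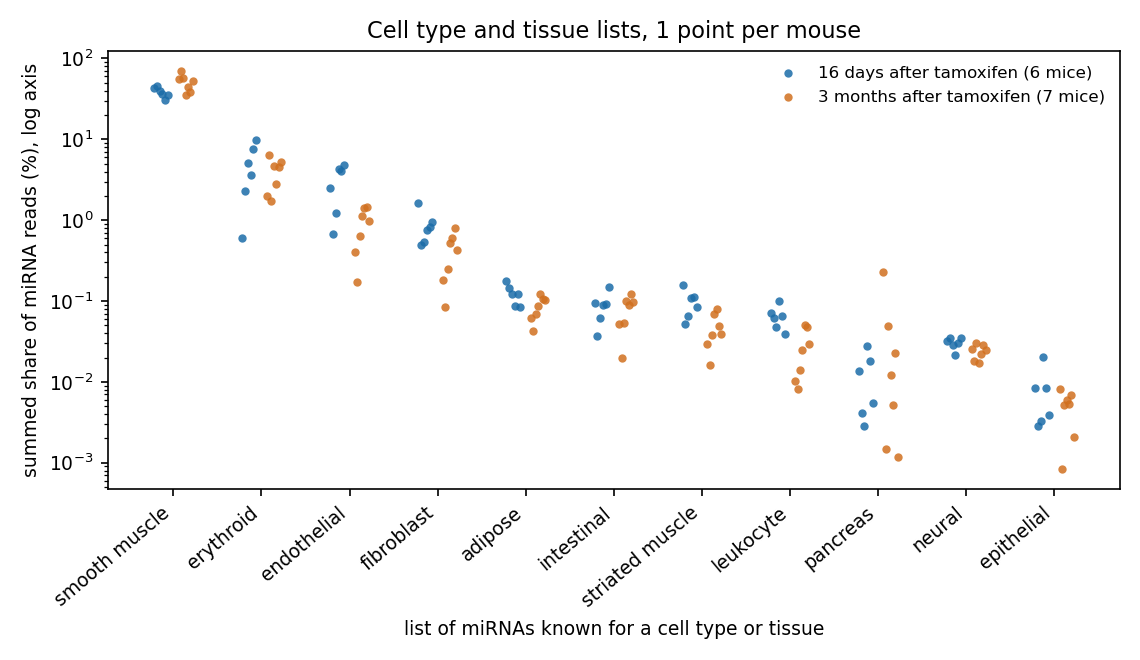
Summed share of miRNA reads (%, log axis) of lists of miRNAs known for a cell type or tissue, 1 point per mouse, with short-term mice in blue and long-term mice in orange. The smooth muscle list lies between 30.2% and 70.7% and the endothelial list between 0.174% and 4.87%; the liver list is not drawn because it was at 0 in most mice, and the highest pancreas point, 0.227%, is mouse 8088.

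Arm choice was nearly complete for most hairpins and fixed over mice. Both arms were listed for 310 hairpins, and 136 of these had a mean share of at least 0.001% for both arms together. The 5p arm gave more reads in 73 of the 136 and the 3p arm in 63. The major arm held over 99% of the reads in 74 hairpins and over 90% in 108. The mean 5p share lay under 5% in 42 hairpins, over 95% in 51 and between 25% and 75% in 10. This value is a ratio within a library and does not depend on scaling.

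The leading hairpins used 1 arm. miR-143 gave 0.00197% ± 0.00136 of its reads from 5p, with 1401 reads of miR-143-5p in all mice beside 64213666 of miR-143-3p. The miR-10b hairpin gave 99.996% and the miR-10a hairpin 99.98% from 5p, and miR-27b gave 0.149% ± 0.0546. The miR-30a hairpin was less complete, at 98.0% ± 1.74 from 5p. For miR-126, whose 3p strand is the better studied in endothelium, 5p gave 94.6% ± 1.52, between 92.6% and 97.5%. miR-126-5p exceeded miR-126-3p in all 13 mice, by 12.5-fold to 39.7-fold with a median of 17.8-fold. In miR-151 the 3p strand gave 89.2% of reads. In miR-199a it gave 92.5%, but miR-199a-3p has the same sequence as the 3p strand of miR-199b, so its reads may come from both.

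Summed over all miRNAs, the arms were near balance, and this rested on miR-143-3p. 5p strands held 49.4% ± 9.72 of the reads and 3p strands 50.3% ± 9.80, and rows with no arm in their name held the rest. Without miR-143-3p, 5p strands held 89.98% ± 2.97, between 83.8% and 94.3%. With miR-10b-5p also left out they held 82.1% ± 3.96.

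The following pairs of strands are the 2 arms of hairpins with a clear and with a mixed choice. They are shown because the kept and the lost strand can be compared by eye.
miR-10b-5p: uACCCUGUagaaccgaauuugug
miR-10b-3p: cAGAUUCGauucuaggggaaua
miR-27b-5p: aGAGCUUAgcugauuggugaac
miR-27b-3p: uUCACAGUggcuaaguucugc
miR-30e-5p: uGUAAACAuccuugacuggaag
miR-30e-3p: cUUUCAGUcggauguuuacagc
let-7d-5p: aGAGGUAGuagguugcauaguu
let-7d-3p: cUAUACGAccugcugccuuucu
miR-28a-5p: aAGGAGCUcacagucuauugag
miR-28a-3p: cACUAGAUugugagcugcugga
The base at the 5′ end differed between major and minor arms. Of 98 hairpins with 1 RefSeq sequence per arm, the major arm began with U in 58 and the minor arm in 19. The major arm had more A or U among its first 4 bases in 49, the minor arm in 21, and they were equal in 28. A U at the 5′ end and weak pairing there are known to favour a strand in Argonaute. These are descriptions over hairpins, which are not replicates.

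The same base marked the abundant strands. A RefSeq sequence was found for 698 of 869 rows, without miR-143-3p. Of 68 such rows with a mean share of at least 0.01%, 60.3% began with U, 20.6% with A, 17.6% with C and 1.47% with G. Of 630 rows below that share, 36.5% began with U and 12.4% with G. Weighted by reads, U began 89.5% ± 3.09 of the matched reads and 78.8% ± 2.74 without miR-10b-5p. The median length was 22 bases in both classes, and the median GC content was 43.7% in the abundant and 50% in the other rows.

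In 10 of 136 hairpins the major arm was not the same in all mice. In order of share they were miR-30e, let-7d, miR-28a, miR-434, miR-144, miR-455, miR-409, miR-345, miR-330 and miR-673. In 6 of them, exact (Clopper-Pearson) 95% intervals lay above 50% in at least 1 mouse and below it in at least 1 other; these intervals cover counting error only, since amplified reads are not independent molecules. The hairpin miR-30e, at 0.164% of reads, gave 42.4% from 5p in mouse 8149 (2173 of its reads against 2954 from 3p, interval 41.0% to 43.7%), 58.9% in mouse 8088, a median of 89.99% and 97.0% in mouse 8754. Mouse 8149, the one with the most miR-143-3p, was the only one below 50%. miR-30e-3p, at 0.0209%, differs by 1 base (G18A) from miR-30a-3p, at 0.0619%, so that the 3p reads of miR-30e are uncertain. let-7d gave a median of 58.9% from 5p, between 33.6% in mouse 9491 (29.7% to 37.7%) and 81.3% in mouse 10 (79.9% to 82.6%). let-7d-5p is itself the minor let-7 of this tissue, at 0.595% of its family. miR-28a gave a median of 49.5%, between 20.2% in mouse 8149 and 75.2% in mouse 8754, with 6 mice above 50% and 7 below. miR-28a-5p, at 0.00714%, and the row miR-28c, at 0.00706%, had nearly the same values, so that the reads of miR-28a-5p are uncertain.

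The erythroid hairpin miR-144 gave 33.7% ± 13.2 from 5p, with 61.7% in mouse 932 (153 reads from 5p and 95 from 3p, interval 55.3% to 67.8%) and 14.2% in mouse 8754. miR-145a kept the same major arm in all mice but spread widely, with 5p at 74.1% ± 15.1. Its 5p share was 93.5% in mouse 10, 90.03% in mouse 932, 95.2% in mouse 931, 50.1% in mouse 8754, 65.6% in mouse 9955 and 79.2% in mouse 9957, and between 53.3% and 92.9% in the long-term mice. At short term the mice with animal numbers below 1000 were thus the highest 3. The labels name no batch or litter, and a link with the animal numbers was not tested.

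**Figure D4:**
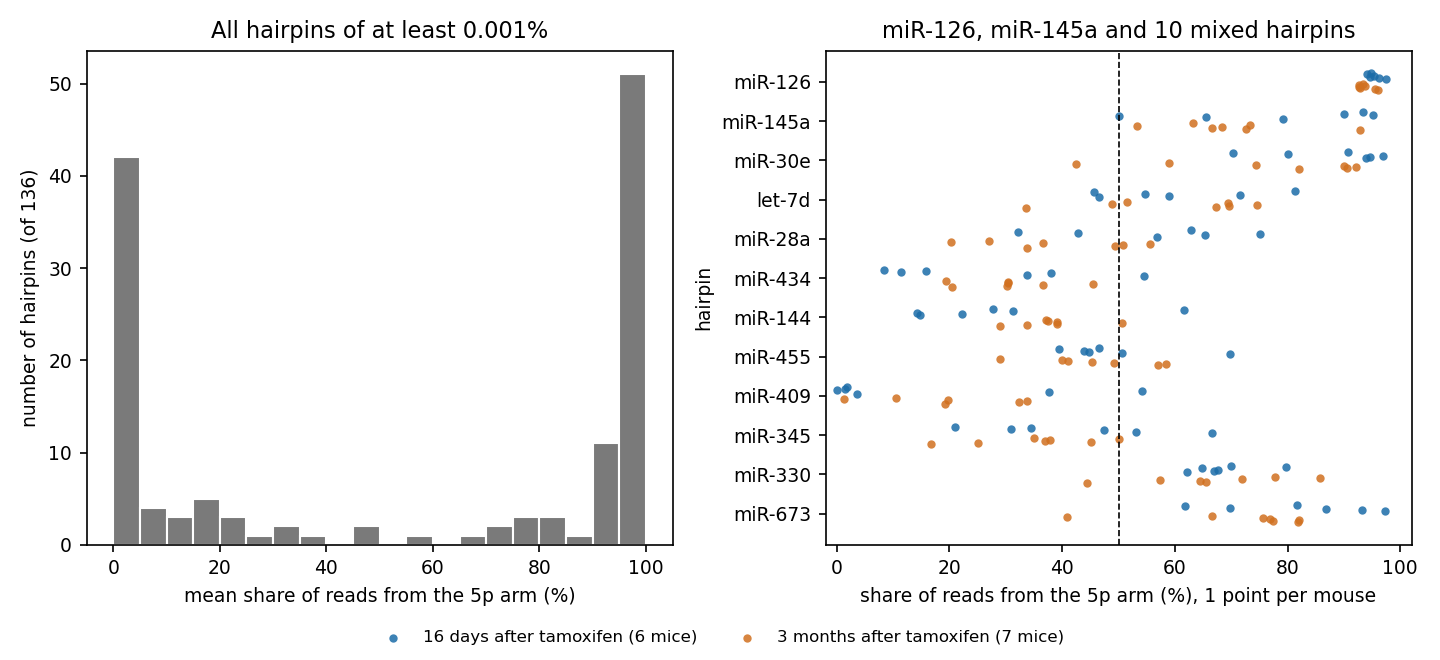
Left, number of hairpins by mean share of reads from the 5p arm (%), for 136 hairpins of at least 0.001%; right, the 5p share in each mouse for miR-126, miR-145a and the 10 hairpins whose major arm was not the same in all mice, with short-term mice in blue, long-term mice in orange and 50% as a dashed line. Hairpins pile up at both ends on the left, miR-126 stays between 92.6% and 97.5% on the right, and let-7d and miR-28a scatter on both sides of 50%.

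Hairpins that lie together in the genome, and are thought to be cut from 1 transcript, gave unequal reads. miR-143-3p exceeded miR-145a-5p in all 13 mice, by 127-fold to 1736-fold with a median of 321-fold. In the cluster of miR-23b, miR-27b and miR-24 on chr13:63300484-63301275 (plus strand), miR-27b-3p exceeded miR-23b-3p by a median of 12.5-fold (7.87-fold to 21.8-fold). In the related cluster on chr8:84208518-84208921 (plus strand), miR-27a-3p and miR-23a-3p were nearly equal, with a median ratio of 1.08 and miR-27a-3p the higher in 7 of 13 mice. miR-191-5p exceeded miR-425-5p by a median of 169-fold, and miR-199a-3p exceeded miR-214-3p by 133-fold. miR-16-5p exceeded miR-15a-5p by 73.3-fold, miR-192-5p exceeded miR-194-5p by 54.6-fold, and miR-451a exceeded miR-144-3p by 8.30-fold. miR-16-5p, miR-199a-3p and miR-194-5p have a second locus, whose reads are included.

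Some of these ratios were steady between mice and others were not. The SD of the log2 ratio was 0.29 for miR-16-5p to miR-15a-5p, 0.38 for miR-191-5p to miR-425-5p, 0.40 for miR-27b-3p to miR-23b-3p and 0.48 for the arms of miR-126. It was 1.03 for miR-143-3p to miR-145a-5p. The cluster mates miR-182-5p and miR-183-5p, sensory miRNAs, had an SD of 1.97, and miR-182-5p was between 0.5004 and 51.9 times miR-183-5p. miR-486-5p and miR-451a, which share red blood cells but no locus, had an SD of 2.02, and their ratio ran from 3.41 to 920 with a median of 172.

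Variation between mice was measured as the SD of log2 share for the 84 miRNAs of at least 0.01%, which hold 99.6% of the reads. The SD ran from 0.33 to 2.12 with a median of 0.90. Read counting alone gave a median SD of 0.026, and the SD between mice was at least 6.25 times its own counting SD for every one of the 84. A miRNA differed by 9.50-fold between its lowest and highest mouse at the median, and by 2.05-fold to 191-fold over the 84. Within times the median SD was 0.76.

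The steadiest miRNAs were of very different abundance. The 8 with the lowest SD were miR-101b-3p (0.33), miR-10b-5p (0.34), miR-143-3p (0.35), miR-9-5p (0.36), let-7f-5p (0.39), miR-98-5p (0.43), miR-182-5p (0.46) and let-7i-5p (0.47). miR-101b-3p, at 0.0130% of reads, ran from 0.00923% to 0.0207%, and 3 of the 8, let-7f-5p, miR-98-5p and let-7i-5p, carry the let-7 seed. The 8 with the highest SD were miR-375-3p (2.12), miR-183-5p (1.87), miR-451a (1.71), miR-574-3p (1.65), miR-411-5p (1.53), miR-338-3p (1.51), miR-99b-5p (1.44) and miR-126-5p (1.42). miR-375-3p, the islet and gut miRNA, had its highest share, 0.226%, in mouse 8088, and its SD was 1.27 in the short-term mice alone. miR-451a, with the red blood cell as its known source, ran from 0.00238% to 0.134%. miR-411-5p lies in the large imprinted cluster of chromosome 12.

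The spread depended on the scale. An SD of at least 1 was found for 34 of the 84, and for 22 without mouse 8149, in which miR-143-3p took 70.6%. The median-ratio scale is set by the median over all miRNAs with reads in every mouse, each counted alike. On that scale the median SD was 0.60 and 12 miRNAs reached 1. There, 63 of the 84 had a lower SD than on the share scale. The order also turned: on that scale miR-143-3p had an SD of 1.11 and miR-10b-5p of 0.85, against 0.35 and 0.34 as shares, and miR-126-5p had 0.83 against 1.42. miR-375-3p was high on both, at 2.24 and 2.12. The rank order of the miRNAs in 2 mice had a Spearman rho between 0.78 (mouse 10 and mouse 8088) and 0.98 (mouse 8088 and mouse 8089) over all pairs of mice, given as a description across miRNAs.

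**Figure D5:**
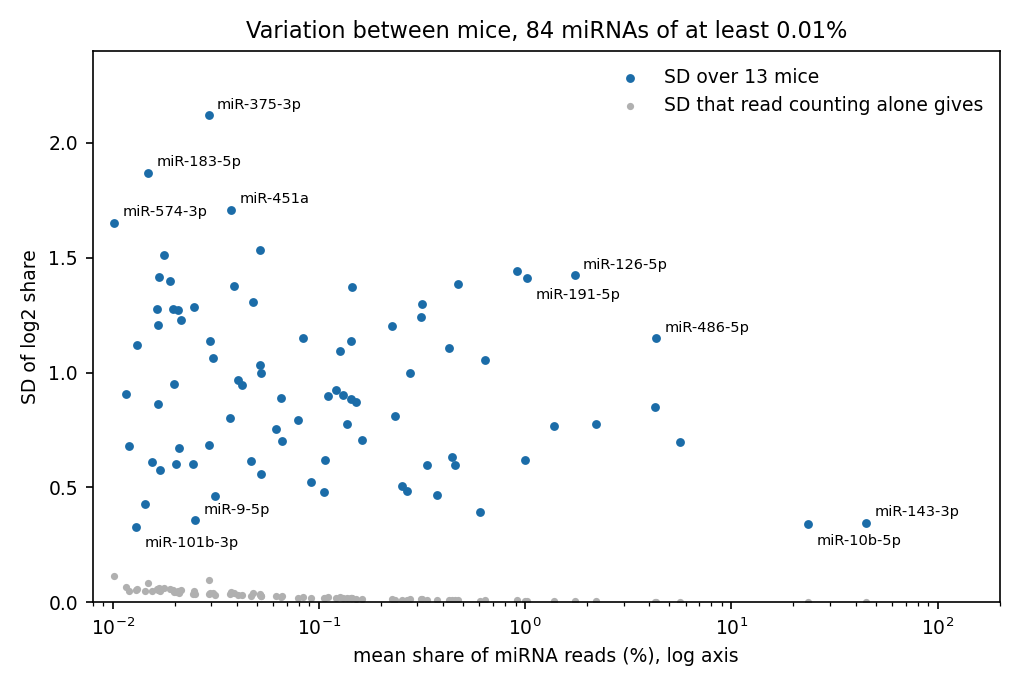
SD of log2 share over 13 mice (blue) and the SD that read counting alone gives (grey) against the mean share of miRNA reads (%, log axis), for the 84 miRNAs of at least 0.01%. Every blue point lies above its grey point, from 0.33 for miR-101b-3p to 2.12 for miR-375-3p, and miR-10b-5p and miR-143-3p are low at the right.

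The mice carry different animal numbers in the labels and were taken as separate animals. 10 pairs of miRNAs, the 2 most abundant and 9 that share a hairpin, a cluster, a family or a cell type, were compared over the 13 mice on the median-ratio scale, with 100000-resample permutation tests (two-sided) and Benjamini-Hochberg adjustment over the 10. 3 pairs passed the threshold of 0.05. The arms of miR-126 went together with Pearson r 0.82 (permutation p = 0.00053, adjusted p = 0.00265) and Spearman rho 0.76 (permutation p = 0.00359), and r was 0.71 without the 2 mice farthest from the median and 0.95 as log2 shares. Within times r was 0.92 at short term and 0.58 at long term. miR-200b-3p and miR-200c-3p, epithelial miRNAs of different loci, had r 0.78 (permutation p = 0.00185, adjusted p = 0.00617) and rho 0.81 (permutation p = 0.00143). They rest on few reads, 920 and 168 in all, and with 5 reads added before the log r was 0.64 (permutation test, adjusted p = 0.0523).

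The third pair depended on the scale. miR-143-3p and miR-10b-5p had r 0.89 on the median-ratio scale (permutation p = 1e-05, the smallest that the resamples can give, adjusted p = 0.0001) and rho 0.93 (permutation p = 4e-05), with 0.88 at short term and 0.83 at long term, and 0.85 without the 2 farthest mice. As log2 shares their r was -0.14 (permutation test, adjusted p = 0.725). Their SDs were 0.35 and 0.34 as shares but 1.11 and 0.85 on the median-ratio scale. The scale of a mouse enters both members of the pair, and the permutation cannot separate this from co-variation of the miRNAs. The 7 other pairs did not pass. miR-143-3p and its cluster mate miR-145a-5p had r 0.36 (permutation test, adjusted p = 0.282), and as log2 shares -0.63 (permutation test, adjusted p = 0.0325). miR-10a-5p and miR-10b-5p had r 0.57 (permutation test, adjusted p = 0.0876), and -0.14 and 0.23 within the short-term and long-term mice. The red blood cell miRNAs miR-451a and miR-486-5p had r -0.07 (permutation test, adjusted p = 0.825) and rho 0.22. The leukocyte miRNAs miR-142-5p and miR-223-3p had r 0.58 (permutation test, adjusted p = 0.0876), and 0.89 as log2 shares (adjusted p = 0.00055). miR-192-5p and miR-194-5p had r -0.41 (permutation test, adjusted p = 0.279), but 0.13 and 0.06 within the short-term and long-term mice and 0.53 as log2 shares, which did not pass either. miR-1a-3p and miR-133a-3p had r 0.38, and 0.67 as log2 shares (permutation test, adjusted p = 0.0258). miR-199a-3p and miR-214-3p had r 0.22, and 0.85 as log2 shares (permutation test, adjusted p = 0.000967). Among animal numbers of 8000 or above alone, 10 mice, r was 0.75 for the arms of miR-126, 0.72 for the miR-200 pair and 0.90 for miR-143-3p with miR-10b-5p.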

How the data were processed

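Per the labels' protocols, RNA from arteries dissected in RNAlater was made into TruSeq small RNA libraries. Tools such as STAR 2.3.1 and R 3.2.3 appear, with no role, in the submitters' processing notes. Which genome build, miRNA annotation, trimming and filters were used was not given in the sources used here. Values deposited by the authors are a normalized signal for each miRNA in each library. Within a library 100% of its values were whole multiples of the lowest value above 0 (within 0.001), and these multiples were taken as reads; every column was matched to a labelled sample.

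From the signal, each column was divided by its sum with miR-486-5p counted once, so the authors' scaling does not enter shares, arm shares or ratios. Rows were matched by name to RefSeq mature sequences (GRCm38.p6), and those without one were placed in families by name. Hairpins needed a mean share of 0.001% and 10 reads in a library, and variation was given for miRNAs of at least 0.01% with 0.5 reads added before log2. Clusters join hairpins within 10 kb. No genotype or time test was made. The 10 pairs were tested by permutation, and single mice within a time by Dixon's test. The steps were tested on simulated data.

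Named are the 25 most abundant miRNAs, the 12 leading families, up to 4 members of each cell type list, the 8 highest and 8 lowest SDs, the 12 most abundant hairpins, those near 50% or with a changing major arm, and the tested pairs. Cluster ratios and other miRNAs outside this rule were chosen after their values were seen. The members and lists were chosen with earlier results of these data known. Alternatives were each mouse left out, library 8 included, each time alone, deep libraries alone, medians or pooled reads, other filters and other scales. Python 3.11.15 with numpy 2.4.6, pandas 2.3.3, scipy 1.17.1 and matplotlib 3.10.9 was used.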

Additional observations from a re-analysis of the deposited data

Results flagged for a closer look

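Within each time, the highest or lowest mouse was compared with its nearest neighbour by Dixon's test in 142 groups of values; chance alone flags about 1 in 20, and 10 were flagged, 3 of them for mouse 10. miR-21a-5p, a miRNA linked to growth and fibrosis, took 0.731% in mouse 10 against 0.359% in the next short-term mouse. In the same mouse the 5p arm gave 99.9% of miR-486 reads (99.98% in the next) and 99.985% of miR-26a reads (99.997%). The epithelial list took 0.0206% in mouse 8754 (0.0085% in the next), and the pancreas list, mostly miR-375-3p, 0.227% in mouse 8088 (0.0494%). The liver list stood at 5.08e-06% in mouse 9486, which is 1 read, and at 0 in the other long-term mice. Arm shares from 5p stood apart for miR-181a in mouse 9491 (99.3%, with 99.6% next), miR-144 in mouse 932 (61.7% and 31.2%), miR-455 in mouse 9957 (69.9% and 50.6%) and miR-673 in mouse 8149 (40.9% and 66.7%).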

How the results depend on the processing

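Of 2306 values recomputed for 113 results under 33 alternatives, 2247 were labelled the same. For shares, arm shares and evenness this meant a move below the SD between mice, and for counts and SDs a change within a fixed fold limit. For tested pairs the call, and the sign of a called pair, had to hold, and for untested ones r had to lie within its interval. Leaving out 1 mouse at a time kept 1461 of 1463. Dropping 1 mouse moves a mean by less than that SD whatever the values, so for means this count cannot show stability. The count of miRNAs with an SD of log2 share of at least 1 was 34, 22 to 37 without 1 mouse, 14 in short-term and 20 in long-term mice alone, 10 on the deposited values, 12 on the median-ratio scale, 11 without miR-143-3p and miR-10b-5p in the sum, and 80 of all miRNAs of at least 0.001%. The median SD was 0.60 on the median-ratio scale. Hairpins with more 5p and more 3p numbered 44 and 28 at a minimum share of 0.01% and 111 and 101 at 0.0001%; those with a changing major arm numbered 3 and 27, and 5 in long-term mice. With both rows of miR-486-5p counted, it took 8.14% and the erythroid list 8.18%. As log2 shares, r turned to -0.63 for miR-143-3p with miR-145a-5p, which then passed, to -0.14 for miR-143-3p with miR-10b-5p, which no longer did, and, passing on neither scale, to 0.53 for miR-192-5p with miR-194-5p and 0.04 for miR-451a with miR-486-5p, and 3 more pairs came to pass in the same direction: miR-1a-3p with miR-133a-3p (0.67), miR-142-5p with miR-223-3p (0.89) and miR-199a-3p with miR-214-3p (0.85). With 5 reads added, the miR-200 pair had 0.64 and no longer passed. In short-term mice alone, with no test, r was -0.14 for miR-10a-5p with miR-10b-5p and 0.94 for the miR-200 pair. miR-142-5p with miR-223-3p ran from 0.49 to 0.67 without 1 mouse, and passed without mouse 8088 (adjusted p = 0.0426, permutation test). The causes were not tested. The thinning of reads and the animal numbers of 8000 or above alone were chosen after seeing the data. No paired analysis was possible because animal numbers do not repeat between groups. Depth limits miRNAs below about 0.0001% of reads.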
